A study of Mus musculus with 42 samples.

Results

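The genes described here are 10 markers of intestinal stem cells, *Lgr5*, *Tnfrsf19*, *Ephb2*, *Prom1*, *Lrig1*, *Smoc2*, *Ascl2*, *Sox9*, *Hopx* and *Bmi1*. They were found in the tables by their symbols. Each of the 10 was listed in all 9 tables of RNA-seq values from mouse colon, which together list 20462 genes. The study used mice to ask what the transcriptional corepressor MTG16 does in the colon epithelium at rest, after injury and in tumors. All mice were on a C57/BL6 background and at least 8 weeks old. *Mtg16*-null mice and mice homozygous for the P209T change of MTG16 (T/T), which weakens its binding to E proteins, came from separate colonies bred from heterozygous parents, and each mutant was set against the WT littermates of its own colony. Both changes are carried by the whole animal and are not limited to the epithelium.

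Crypts, the glands of the epithelium, were released with a chelating agent from segments of 5 cm that began at the cecum (proximal) or ended at the anus (distal). At baseline, 2 proximal libraries stood for each of *Mtg16*-null, T/T and their WT littermates, and the distal libraries numbered 4 *Mtg16*-null, 4 WT of that colony, 4 T/T and 3 WT of that colony. After injury, mice had taken dextran sulfate sodium (DSS, a chemical that damages the colon epithelium) at 2% in water for 5 days and then water for 4 days, which gave distal crypts of 4 *Mtg16*-null, 3 WT of that colony, 3 T/T and 3 WT of that colony. Tumors had been induced with azoxymethane (AOM, a carcinogen, 10 mg/kg) and 3 cycles of 4 days of 3% DSS and 16 days of water. They were dissected whole, with 3 libraries of T/T and 3 of WT, so they hold stroma and immune cells as well as epithelium.

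Stem cells at the crypt base divide throughout life to renew the colon epithelium, and WNT and R-spondin signals maintain them. *Lgr5*, an R-spondin receptor, and *Ascl2*, a transcription factor that sets stem cell identity, mark the cycling stem cells. *Tnfrsf19* (also called Troy, a receptor of the tumor necrosis factor family), *Ephb2* (a receptor tyrosine kinase that guides cells along the crypt axis) and *Sox9* (a transcription factor of the crypt base) are known WNT targets, and *Smoc2* is a secreted matrix-associated protein of the same cells. *Prom1* (CD133) is a membrane glycoprotein, *Lrig1* a membrane protein that restrains ErbB receptors, *Hopx* an atypical homeodomain protein and *Bmi1* a component of Polycomb repressive complex 1, and the last 3 have been used to mark slowly cycling or reserve stem cells. MTG16 does not bind DNA itself but is brought to genes by transcription factors, among them the E proteins, which bind the E box.

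The 250 bases before the start sites of 3 members whose levels differed between WT colon segments or after injury are shown, because the E box is a motif of the E proteins, some of the factors that bring MTG16 to genes. The letters are those of RefSeq on GRCm38.p6, 5′ to 3′ on the strand of the gene, with each E box (CANNTG, which reads the same on both strands) in capitals. The *Tnfrsf19* window was chr14:61046856-61047105 on the minus strand and held 3 E boxes. The *Ephb2* window, chr4:136836013-136836262 on the minus strand, and the *Bmi1* window, chr2:18676768-18677017 on the plus strand, held 1 each.
Tnfrsf19: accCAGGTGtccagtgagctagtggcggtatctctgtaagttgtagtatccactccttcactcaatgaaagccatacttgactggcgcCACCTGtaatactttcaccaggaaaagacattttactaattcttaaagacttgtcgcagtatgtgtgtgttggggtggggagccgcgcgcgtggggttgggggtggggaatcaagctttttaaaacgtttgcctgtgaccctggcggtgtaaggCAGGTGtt
Ephb2: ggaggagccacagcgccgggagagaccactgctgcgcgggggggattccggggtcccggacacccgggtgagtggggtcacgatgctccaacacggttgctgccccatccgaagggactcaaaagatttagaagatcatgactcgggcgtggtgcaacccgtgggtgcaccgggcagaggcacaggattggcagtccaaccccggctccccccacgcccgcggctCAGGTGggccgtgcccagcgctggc
Bmi1: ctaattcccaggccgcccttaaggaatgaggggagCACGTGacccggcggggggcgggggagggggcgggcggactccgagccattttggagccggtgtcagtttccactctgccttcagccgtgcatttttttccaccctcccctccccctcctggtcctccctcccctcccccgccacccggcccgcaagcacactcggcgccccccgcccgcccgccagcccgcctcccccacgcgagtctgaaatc
None of the 3 windows held CTTTGA or CTTTGT, the core letters of a TCF/LEF site, on either strand. Of all 32851 windows of 250 bases before a RefSeq start, 66.2% held an E box and 27.6% held one of these TCF/LEF cores, so an E box is common in windows of this length. These matches describe the letters only. On GRCm38, *Lgr5* spans chr10:115450311-115587780 on the minus strand, *Tnfrsf19* spans chr14:60963875-61046490 on the minus strand, *Ephb2* spans chr4:136647539-136835988 on the minus strand, *Prom1* spans chr5:43993620-44102032 on the minus strand, *Lrig1* spans chr6:94604529-94700158 on the minus strand, *Smoc2* spans chr17:14279506-14404790 on the plus strand, *Ascl2* spans chr7:142966829-142969264 on the minus strand, *Sox9* spans chr11:112782224-112787760 on the plus strand, *Hopx* spans chr5:77086988-77115121 on the minus strand and *Bmi1* spans chr2:18677018-18686629 on the plus strand. The other RefSeq start of *Tnfrsf19*, inside the gene, had a window with 2 E boxes and 1 of these TCF/LEF cores. RefSeq windows were found for 7 of the 10 members, and where a gene had several starts the one nearest its annotated end was taken. Of the 4 windows not shown, that of *Ascl2* held 2 E boxes, that of *Prom1* 1 and those of *Lrig1* and *Hopx* none, and the *Prom1* and *Lrig1* windows overlap an annotated exon. These counts depend on the start, since a window at the other *Prom1* start held none and one at the other *Hopx* start 1. *Lgr5*, *Smoc2* and *Sox9* are named without a window.

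The values are counts per gene that the authors had divided by a size factor for each library (normalized counts), on the scale of 1 table at a time. In the 38 libraries whose whole reads could be recovered, 32231389 to 74661922 reads were assigned to genes (median 46659626), and for the other 4, the proximal mutants, the depth was not recovered. *Cbfa2t3*, the symbol of *Mtg16* in the tables, averaged 844, 725 and 526 in the proximal, distal and DSS *Mtg16*-null groups against 2428, 1514 and 2128 in their WT littermates, so its mean was lower but still counted in the null. The ranges of single libraries overlapped in distal crypts, 424 to 1095 against 1027 to 1809. In T/T groups it averaged 2758, 1859, 3051 and 1799 in proximal, distal and DSS crypts and tumors against 2041, 987, 2819 and 1284 in WT, without overlap except after DSS. One library went against its label. Distal *Mtg16*-null replicate 2 had a segment score (mean log2 level of 50 genes high in proximal WT crypts minus that of 50 genes high in distal WT crypts, members left out) of 5.51, while the other 7 libraries of that table lay between -5.43 and -4.55 and the 4 proximal WT libraries between 5.55 and 5.88. For the members, the comparison that holds this library is given with and without it, and so are the differences between effects that it moved most. In all groups, each of 8 genes that mark epithelium averaged at least 10 normalized counts. The labels do not say whether replicates are single mice, so p-values measure the spread between these libraries, which may be technical. Most comparisons share libraries with another. The WT distal libraries of both colonies enter the segment comparison and their own genotype comparison, and the WT libraries of the T/T colony also enter the comparison of DSS with baseline.

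The comparison of distal with proximal WT crypts asked whether the stem cell markers vary along the colon. It used 7 distal and 4 proximal WT libraries of both colonies and was the comparison with the most members called. At an adjusted p under 0.05, *Lrig1*, *Smoc2* and *Hopx* were higher in distal crypts, where 20.1% of all genes tested were called higher, and *Tnfrsf19*, *Prom1* and *Bmi1* were lower, where 22.0% were called lower. At 3 of 10 in each direction, the members' shares are not far from this background, since the segments differ in a large part of the transcriptome. *Lgr5*, *Ephb2*, *Ascl2* and *Sox9* were not called. In bulk crypts, fewer cells of a type and less RNA of a gene per cell cannot be told apart.

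Among the membrane proteins, *Tnfrsf19* had the largest difference. Its normalized counts were 248, 228, 353 and 163 in the 4 proximal libraries and ran from 0 to 13.2 with a median of 3.46 in the 7 distal ones. All distal libraries were far below all proximal ones, with a log2 fold change from proximal to distal of -5.75 (SE 0.586, adjusted p = 2.93e-06) on the scale of the log2 of the normalized count plus 1. With 0.1 added in place of 1 the change was -6.48, since the distal values lie near 0. *Prom1* was the most abundant member per kilobase of its longest coding transcript in both segments (6949.6 normalized counts per kb in proximal and 1794 in distal crypts). Its levels were 28905, 26605, 31007 and 27149.9 in proximal libraries and 6050.2 to 8739.8 with a median of 7203 in distal ones (log2 fold change -1.96, SE 0.0941, adjusted p = 1.87e-09). The groups did not overlap, and the level was 3.89-fold lower in distal crypts. *Lrig1* went the other way, with 4724, 5615, 4258 and 4464 in proximal libraries and 7679 to 9372 with a median of 8695 in distal ones (log2 fold change 0.85, SE 0.0807, adjusted p = 1.48e-06), again without overlap. *Ephb2*, the receptor that places cells along the crypt, was 4789.6, 5450.1, 5671 and 5114 in proximal and 4447 to 5999 with a median of 5038 in distal libraries. These ranges overlapped almost entirely, with a log2 fold change of -0.05 and a 95% interval of -0.23 to 0.13. *Lgr5* was 269.9, 231, 278 and 428 in proximal and 231 to 417 with a median of 270.2 in distal libraries. Its 95% interval ran from -0.38 to 0.46 around 0.04, so a change of the size seen for *Prom1* lies outside it.

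The secreted *Smoc2* was 954, 990.3, 1027 and 1265 in proximal libraries and 1634 to 2432 with a median of 1922 in distal ones (log2 fold change 0.88, SE 0.112, adjusted p = 2.54e-05). Every distal library was above every proximal one. Of the transcription factors, *Ascl2* had 176, 213, 238 and 323 in proximal and 222 to 388 with a median of 292 in distal libraries (log2 fold change 0.31, SE 0.177, adjusted p = 0.181), and the groups overlapped. *Sox9* had 2028, 1870.5, 2560.2 and 2337 in proximal and 1931 to 2825 with a median of 2165 in distal libraries, with a log2 fold change of 0.05 (95% interval -0.19 to 0.29). *Hopx* had 1418, 1335, 1519 and 1505 against 1389 to 2021 with a median of 1805 (log2 fold change 0.25, SE 0.0932, adjusted p = 0.0458). The lowest distal library lay within the proximal range, and the call for *Hopx* was lost in 9 of 11 fits that left out 1 library, with libraries recentred on epithelial genes (log2 fold change 0.09) and within the *Mtg16*-null colony (0.12, adjusted p = 0.617). *Bmi1*, the Polycomb component, was 961, 902, 841 and 951 in proximal and 579 to 695 with a median of 667 in distal libraries (log2 fold change -0.47, SE 0.0744, adjusted p = 0.000169). All distal values were below all proximal ones, and the call held in each colony.

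**Figure D1:**
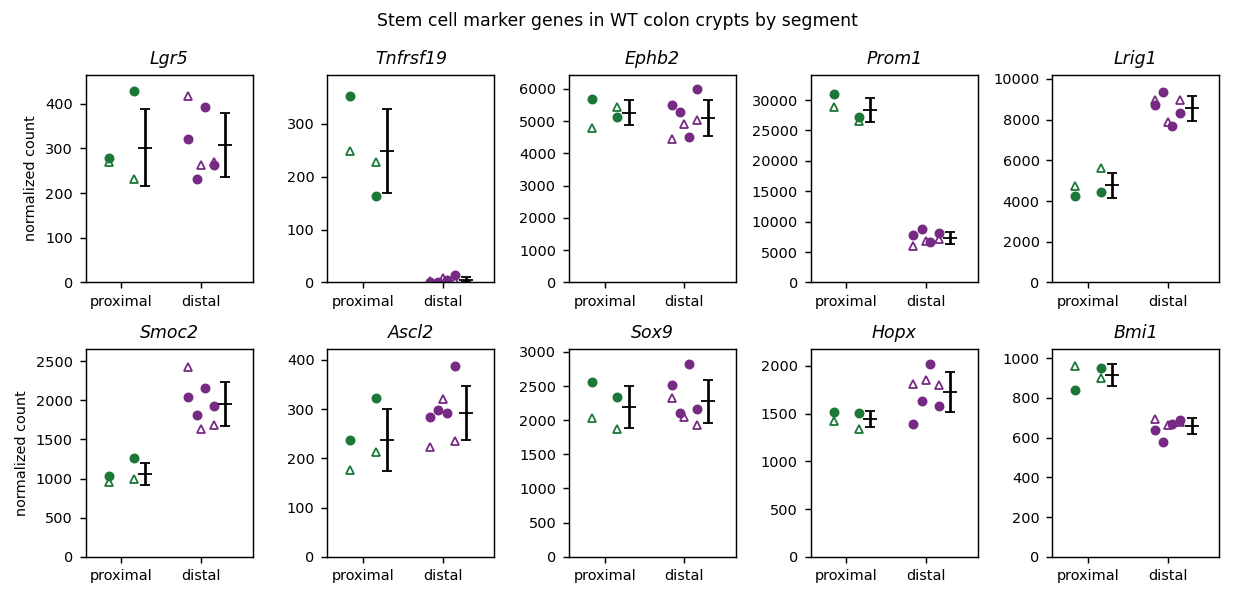
Normalized counts (vertical axes, each from 0) of the 10 members in WT crypts of the proximal (green) and distal (purple) colon, 1 point per library, with filled circles for WT mice of the *Mtg16*-null colony, open triangles for WT mice of the T/T colony, and the mean ± SD at the right of each group. *Tnfrsf19*, *Prom1*, *Lrig1*, *Smoc2* and *Bmi1* separate the segments without overlap, while *Lgr5*, *Ephb2*, *Ascl2*, *Sox9* and *Hopx* overlap.

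The libraries of the segments also differ in the first 4 digits of their codes, 4149 and 5582 in proximal and 4149 and 5094 in distal crypts, which the labels do not explain. Within 4149 alone, 2 libraries per segment, *Tnfrsf19* (log2 fold change -4.70, adjusted p = 0.00996), *Prom1* (-1.98, adjusted p = 0.00259), *Lrig1* (0.87, adjusted p = 0.00803) and *Smoc2* (0.84, adjusted p = 0.0279) were still called. *Bmi1* kept its direction there (-0.40) without a call (adjusted p = 0.158). Of 22 further genes associated with stem cells and WNT signaling, all tested, 5 were higher and 6 lower in distal crypts, with a median log2 fold change of -0.07 beside 0.04 for the members and between -0.01 and 0.03 for all genes tested in each of the 9 comparisons. Among the 22, the largest changes were those of *Sp5* (-3.34), a transcription factor induced by WNT, *Msi1* (-2.87), an RNA-binding protein of progenitor cells, and *Cd44* (-2.02), a hyaluronan receptor and WNT target. Leukocyte markers summed to 808 to 2221 normalized counts in distal and 2692 to 4325 in proximal libraries, and their part in these differences was not tested. Recentred on epithelial genes, which takes 0.16 off every log2 fold change, all genes were called 1707 times higher and 4400 times lower, where they had been 2785 and 3039.

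In distal crypts of *Mtg16*-null mice at baseline, no member was called against WT littermates, where 0.239% of all genes were, and no member had an unadjusted p under 0.05. The highest values of 3 members, *Tnfrsf19*, *Prom1* and *Bmi1*, came from replicate 2, whose segment score is that of proximal crypts. *Prom1* was 6148, 27099, 6358 and 7067 in the 4 *Mtg16*-null libraries in order of replicate number and 8008, 8976, 6867 and 8302 in the 4 WT libraries. *Tnfrsf19* was 5.79, 132, 0.947 and 0 in the same *Mtg16*-null libraries and 1.31, 0, 5.18 and 13.5 in WT. For both genes replicate 2 stood far above the other 7 libraries, at levels of the same order as in proximal crypts. *Lrig1* (5656), *Smoc2* (1339) and *Sox9* (2022) were lowest of the 8 libraries in replicate 2, and *Bmi1* (844) was highest. The 5 members without overlap between WT segments thus all lay, in replicate 2, on the proximal side of the other *Mtg16*-null libraries. The origin of this profile was not tested.

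**Figure D2:**
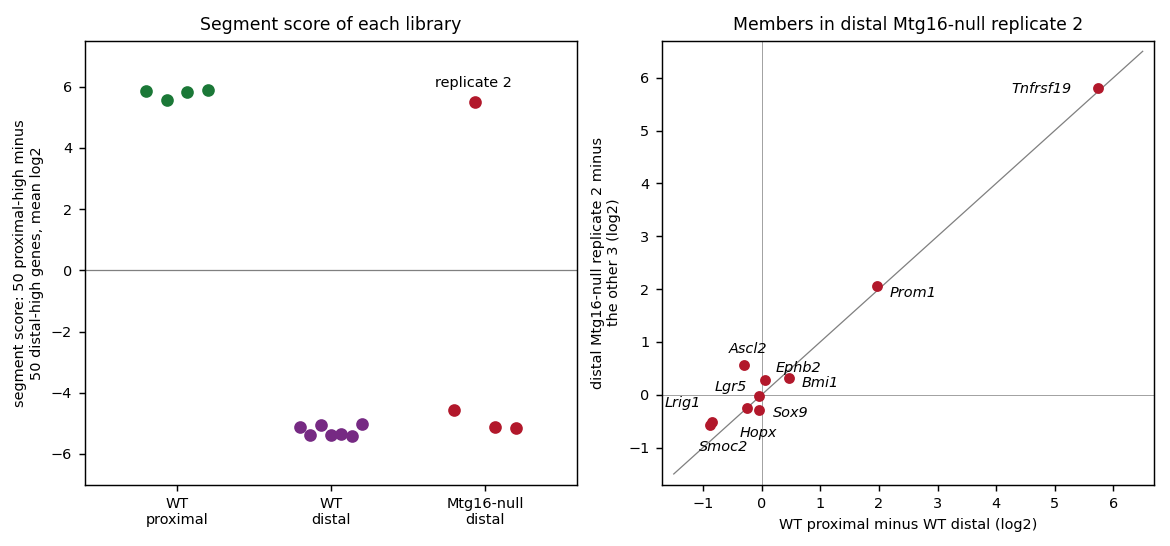
Left, the segment score of each WT proximal, WT distal and distal *Mtg16*-null library (mean log2 of 50 proximal-high genes minus that of 50 distal-high genes). Right, for each member, the log2 level of distal *Mtg16*-null replicate 2 minus the mean of the other 3 *Mtg16*-null libraries, against the log2 difference between proximal and distal WT crypts, with the line of equality. Replicate 2 sits at 5.51, just under the 4 proximal libraries, and *Tnfrsf19* (5.81 against 5.75) and *Prom1* (2.06 against 1.96) lie near the line.

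Without replicate 2, *Prom1* went from a log2 fold change of 0.22 to -0.30 (SE 0.105, adjusted p = 0.518), and *Tnfrsf19* from 0.77 to -0.68. *Tnfrsf19* then had a mean under 10, the minimum set for a test, and was kept only for this comparison. *Ascl2* was 241, 378, 277 and 252 in *Mtg16*-null and 289.7, 307, 300.0 and 397 in WT libraries, and its change went from -0.18 to -0.32 (adjusted p = 0.933). Without replicate 2, the 3 remaining *Ascl2* values of *Mtg16*-null lay below all 4 WT values. *Lgr5* was 391, 339, 230.2 and 457 against 328, 237, 404 and 269.7, and the groups overlapped, with a change of 0.18 both with and without the library. The other 6 members ran from -0.24 (*Ephb2*) to 0.03 (*Bmi1*) without it, where with it they had run from -0.24 (*Lrig1*) to 0.11 (*Bmi1*). No member was called then either, where 1.04% of all genes were. With all 8 libraries, none of the 20 stem cell associated genes tested was called, and their median log2 fold change was 0.04 (median of the members -0.05). edgeR and DESeq2 on the recovered reads called no member with all 8 libraries.

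In proximal *Mtg16*-null crypts, with 2 libraries per genotype, no member was called, where 0.0645% of all genes were, and none had an unadjusted p under 0.05. In 5 members the groups did not overlap. With 2 libraries on each side such gaps arise easily. The share of all genes with one was not counted, so this number is not a result about the members. *Tnfrsf19* was 171 and 154 in *Mtg16*-null and 380.4 and 174 in WT libraries (log2 fold change -0.66, SE 0.382, adjusted p = 0.893). *Bmi1* was 737 and 810.4 against 907 and 1014 (log2 fold change -0.31, SE 0.15, adjusted p = 0.871). Both mutant values of each gene were under both WT values, but the gap between the genotypes was smaller than the one between the 2 WT libraries. *Sox9* (2413 and 2302 against 2761 and 2492) and *Hopx* (1485 and 1541 against 1638 and 1605) also had both mutant values under both WT values, with log2 fold changes of -0.15 and -0.10. *Lrig1* had both mutant values above both WT values, 5205 and 5577 against 4592 and 4759.9 (log2 fold change 0.20, SE 0.108, adjusted p = 0.877). *Lgr5* was 292 and 432 against 299.7 and 457, and *Ascl2* 292 and 346 against 257 and 344. In both genes the replicates of a genotype differed more than the genotypes did. *Ephb2*, *Prom1* and *Smoc2* had log2 fold changes of 0.05, 0.05 and -0.07. The 95% interval lay within 1 log2 unit of 0 for 9 of the 10 members, the exception being *Tnfrsf19* (-1.57 to 0.25). Smooth muscle markers summed to 58.9 and 3745 in the *Mtg16*-null libraries and 72.4 and 86.7 in WT, and their part in these values was not tested. None of the 21 stem cell associated genes tested was called (median 0.14, median of the members -0.06).

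In proximal T/T crypts, again 2 libraries against 2, no member was called, where 0.232% of all genes were. *Tnfrsf19* was 141 and 149.9 in T/T and 241 and 219 in WT libraries, with a log2 fold change of -0.66 (95% interval -1.10 to -0.22, adjusted p = 0.271). It was the 1 member with an unadjusted p under 0.05, which 1652 of the 13767 genes tested had. Its change had the same size as in the *Mtg16*-null colony, where the WT spread was wider. *Lgr5* was 394 and 283 in T/T and 262 and 222 in WT (log2 fold change 0.46, SE 0.211, adjusted p = 0.45). *Ascl2* was 231 and 210.3 against 171 and 204 (log2 fold change 0.24, SE 0.187, adjusted p = 0.644). Both markers of cycling stem cells were higher in each T/T library than in each WT library, without passing the test. *Prom1* (29246 and 29414 against 28098 and 25593) was also higher, and *Lrig1* (4175 and 4526 against 4593 and 5402) lower, in both T/T libraries, with log2 fold changes of 0.13 and -0.20. *Ephb2*, *Smoc2*, *Sox9*, *Hopx* and *Bmi1* overlapped, with changes between -0.16 and 0.02. As in the *Mtg16*-null colony, the share of all genes without overlap was not counted. Of the 22 stem cell associated genes, 1 passed the test, *Aqp4*, a water channel, which was lower in T/T (log2 fold change -0.92). This call held in 1 of 4 fits that left out a library and was lost with no filter on low values and with libraries recentred on epithelial genes. The median of the list was 0.02 and that of the members -0.04. Smooth muscle markers summed to 36.0 and 1417 in the T/T libraries and 37.2 and 41.8 in WT, fibroblast markers to 54.0 and 560.3 against 66.3 and 88.3, and their part in these values was not tested.

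In distal T/T crypts, 4 libraries against 3 WT, 9 members were tested and none was called, where 0.0369% of all genes were, and none had an unadjusted p under 0.05. *Tnfrsf19* was too low to test, with 3.39, 0, 1.91 and 5.1 in T/T and 3.13, 7.84 and 3.19 in WT libraries. *Lgr5* was 272, 373, 389 and 183 in T/T and 391, 246 and 249 in WT, and *Ascl2* 359.9, 253, 282 and 283 and 209, 299.8 and 217 (log2 fold change 0.29, SE 0.18, adjusted p = 0.863). Both genes overlapped between genotypes. *Bmi1* had the largest change, -0.51 (95% interval -1.43 to 0.41), from values of 202, 667, 622 and 465 in T/T and 652, 620.1 and 626 in WT. Most of it came from T/T replicate 1, the lowest of the 7 libraries, which also had a slope of the log2 level on transcript length (log2 units per doubling of length) of -0.201, against 0.00700 to 0.0721 in the other 6. The other 6 members tested lay between -0.12 (*Prom1*) and 0.09 (*Sox9*). None of the 19 stem cell associated genes tested was called (median -0.06, median of the members -0.03). Smooth muscle markers summed to 53.4 to 1943 in T/T and 78.8 to 87.7 in WT libraries, and their part in these values was not tested.

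Whether the effect of a mutation differed between segments, colonies or states was tested as the difference of 2 log2 fold changes. No member was called in any of the 6 differences, with or without distal *Mtg16*-null replicate 2. For the *Mtg16*-null effect, proximal minus distal, in which 0.0372% of all genes were called, *Lrig1* gave 0.45 (adjusted p = 0.999 from the limma fits) and *Bmi1* -0.43 (adjusted p = 0.999). Without replicate 2 these differences were 0.32 and -0.34, and that of *Tnfrsf19* went from -1.43 to 0.02. That of *Prom1* changed sign, from -0.17 to 0.35 (95% interval -0.04 to 0.74 without replicate 2). For the T/T effect, proximal minus distal (0.0229% of all genes called), *Lgr5* gave 0.45 (95% interval -0.34 to 1.24, adjusted p = 0.922), and *Tnfrsf19* could not be tested. At baseline in distal crypts, T/T minus *Mtg16*-null (0% called, with adjusted p of 0.955 or more for all members), *Ascl2* gave 0.47 (95% interval -0.06 to 1.01) with replicate 2 in the *Mtg16*-null term and 0.61 (95% interval 0.11 to 1.11, adjusted p = 0.956) without it. The difference of *Prom1* there was -0.34 with replicate 2 and 0.17 without it (95% interval -0.32 to 0.66). After DSS, T/T minus *Mtg16*-null (0.0148% called), *Ascl2* gave -0.83 (95% interval -1.63 to -0.03, adjusted p = 0.763) and *Tnfrsf19* -1.02 (-2.19 to 0.15, adjusted p = 0.763). For the T/T effect, after DSS minus baseline (0.234% called), *Bmi1* gave 1.53, *Prom1* 1.21 and *Ascl2* -0.81, with adjusted p between 0.419 and 0.46. For the *Mtg16*-null effect, after DSS minus baseline (0.00738% called), *Prom1* gave 0.42, and 0.93 without distal *Mtg16*-null replicate 2 (95% interval 0.31 to 1.55, adjusted p = 0.297). *Tnfrsf19* went from 0.18 to 1.63 (95% interval -0.64 to 3.90) and *Ascl2* from 0.49 to 0.63 (95% interval 0.02 to 1.24, adjusted p = 0.701).

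The comparison of WT distal crypts after DSS with those at baseline, 3 libraries each of the T/T colony, asked how the markers stand during repair. *Ephb2*, *Sox9* and *Tnfrsf19* were higher and *Bmi1* lower after DSS, where 14% of all genes were called higher and 21.6% lower. The codes of the libraries begin with 5740 after DSS and with 5094 at baseline, so treatment and code cannot be told apart.

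*Ephb2* was 9455, 9120.0 and 7440.0 after DSS and 4852, 5264 and 5368 at baseline (log2 fold change 0.74, SE 0.126, adjusted p = 0.0118). *Sox9* was 4147, 4102 and 2897 after DSS and 2541, 2199.9 and 2057 at baseline (log2 fold change 0.70, SE 0.177, adjusted p = 0.027). *Tnfrsf19* was 26.6, 18.6 and 24.5 against 3.64, 8.99 and 3.69 (log2 fold change 2.00, SE 0.411, adjusted p = 0.0171). In each of these genes every library after DSS was above every library at baseline, although *Tnfrsf19* stayed far below its proximal level. *Bmi1* went the other way, with 149, 127 and 353 after DSS against 758, 712 and 723 at baseline (log2 fold change -1.95, SE 0.38, adjusted p = 0.0151), and the third library after DSS was more than 2-fold above the other 2. *Lgr5* was 147, 159 and 253 after DSS and 455, 282 and 288 at baseline. All 3 values after DSS were lower, but the adjusted p was 0.058 (log2 fold change -0.88, SE 0.297). *Ascl2* was 427, 367 and 408 against 243, 344 and 251, higher in all 3 libraries after DSS, with a log2 fold change of 0.54 (SE 0.194, adjusted p = 0.0688). The 2 markers of cycling stem cells therefore had fold changes of opposite sign here, neither of which passed the test. *Lrig1* was 11569, 12746 and 9883 against 9756, 8449 and 9544 without overlap (log2 fold change 0.30, SE 0.13, adjusted p = 0.111). With DESeq2 on the recovered reads, *Lgr5* (adjusted p = 0.0233) and *Ascl2* (adjusted p = 0.0374) were called as well, in a fit that called 5979 of 13557 genes. *Smoc2* (0.55), *Prom1* (-0.43) and *Hopx* (-0.01) overlapped and were not called.

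These calls rest on few libraries. Without the first library after DSS, or the first or second at baseline, no member was called. Without the third after DSS, 9 were, all but *Hopx*, in a fit that called 9086 of 13573 genes. The slope on transcript length was -0.240, -0.346 and 0.0744 in the libraries after DSS and 0.158 to 0.189 at baseline, and its part in these changes was not tested. With each library's trend with transcript length removed, the 4 calls were kept (*Ephb2* 1.66, *Sox9* 0.94, *Tnfrsf19* 2.23, *Bmi1* -1.78) and *Lrig1* and *Smoc2* were called as well. That fit called 5940 of 13566 genes. The 8 epithelial genes lay on average 0.44 higher after DSS. Recentred on them, *Ephb2* was 0.30 (adjusted p = 0.0484), *Sox9* 0.26 (adjusted p = 0.237), and *Lgr5* (-1.32) and *Hopx* (-0.45) were called lower. All genes were then called 243 times higher and 4131 times lower, where they had been 1897 and 2936. Fibroblast markers summed to 165 to 366 normalized counts after DSS and 49.7 to 124 at baseline, and leukocyte markers to 895 to 1399 and 1350 to 2245. Goblet cell markers summed to 1060700 to 1188810 after DSS and 556625 to 676268 at baseline, with 5 of 7 tested called higher, and the segment score was -4.23 to -3.48 after DSS and -5.18 to -4.84 at baseline, both without overlap. The part of these values in the changes of the members was not tested.

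Of the 20 further stem cell associated genes tested, none was higher and 4 were lower after DSS, with a median log2 fold change of 0.06 beside 0.42 for the members. These 4 are a share near the 21.6% of all genes called lower. The largest changes of the list were those of *Aqp4* (-2.08), the ion transporter *Slc12a2* (-1.89), and *Lgr4* (-1.27), an R-spondin receptor related to *Lgr5*. Of 12 cell cycle genes, 2 were higher and 4 lower, beside 14% and 21.6% of all genes, led by *Mki67* (-4.50), *Top2a* (-3.22) and *Ccnb1* (-1.85), which are all expressed in dividing cells. Of 6 fits that left out a library, *Aqp4* and *Mki67* were called in 5, *Top2a* and *Ccnb1* in 3, and *Slc12a2* and *Lgr4* in 1. Of 8 genes known from regenerating epithelium, 6 were tested, *Clu* was higher (1.60) and *Anxa1* lower (-1.37), called in 2 and 3 of these 6 fits. The same 2 states of the *Mtg16*-null colony lie in different tables and are set side by side on the scale of each library's own total (counts divided by the total and given as CPM) without a test. There, WT *Bmi1* was 15.1 after DSS and 14.3 at baseline, where the T/T colony had 4.36 and 15.6. WT *Lgr5* was 8.54 and 6.75, where the T/T colony had 3.86 and 7.3. In the *Mtg16*-null colony, then, the WT means of *Bmi1* and *Lgr5* after DSS were not below those at baseline. WT *Ascl2* was 6.02 after DSS and 7.0 at baseline, where the T/T colony had 8.27 and 5.95, so for both *Lgr5* and *Ascl2* the order of these means was the reverse of that in the T/T colony, a difference that was not tested. *Ephb2* (142 against 118), *Sox9* (61.6 against 53.7) and *Tnfrsf19* (0.318 against 0.107) had higher means after DSS there too.

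In distal crypts after DSS, *Mtg16*-null mice, 4 libraries against 3 WT, had no member called, where 0.629% of all genes were. An unadjusted p under 0.05 was found for 3 members, *Tnfrsf19*, *Smoc2* and *Prom1*, and for 1796 of the 14476 genes tested. *Prom1* was 11305, 20448, 20507 and 12815 in *Mtg16*-null and 7228, 13615 and 10488 in WT libraries, each in order of replicate number. The groups overlapped, but the mutant library was above the WT library of the same number in all 3 pairs. The log2 fold change was 0.64 (SE 0.278, adjusted p = 0.389), and with the replicate number as a block it was 0.73 (adjusted p = 0.00515), a call in a fit in which 8.78% of all genes were called. *Tnfrsf19* was 30.2, 34.1, 39.9 and 36.8 in *Mtg16*-null and 17.3, 17.6 and 18.2 in WT (log2 fold change 0.95, SE 0.32, adjusted p = 0.235). Every mutant value was above every WT value. *Smoc2* was 2419.8, 2921, 2500.0 and 2661 against 4337, 3271 and 3166 (log2 fold change -0.44, SE 0.156, adjusted p = 0.265), and *Lrig1* 9871, 10629, 9737 and 9698 against 12786, 11276 and 11436 (log2 fold change -0.24, SE 0.125, adjusted p = 0.488). In both, all mutant values were below all WT values. With the block these 3 members stayed uncalled, *Smoc2* with an adjusted p of 0.0834, *Tnfrsf19* with 0.144 and *Lrig1* with 0.204. The signs of these 4 log2 fold changes are those of proximal against distal WT crypts.

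*Lgr5* was 263, 471, 401 and 289 in *Mtg16*-null and 384, 530.5 and 509 in WT after DSS (log2 fold change -0.44, SE 0.249, adjusted p = 0.542). *Ascl2* was 461, 311, 428 and 437 against 458, 259.9 and 292 (log2 fold change 0.31, SE 0.248, adjusted p = 0.684). Both overlapped between genotypes. Within the 3 pairs of the same number, *Lgr5* was lower and *Ascl2* higher in each mutant library, and with the block neither was called (-0.35, adjusted p = 0.207, and 0.27, adjusted p = 0.358). *Bmi1* (0.26), *Sox9* (0.12), *Ephb2* (0.02) and *Hopx* (-0.18) were not called, and the 95% interval of 8 of the 10 members lay within 1 log2 unit of 0. None of the 20 stem cell associated genes tested was called (median -0.08, median of the members 0.07). The segment score was -2.89 to -1.97 in the *Mtg16*-null and -4.50 to -3.66 in the WT libraries. Leukocyte markers summed to 5186 to 15413 normalized counts in *Mtg16*-null and 1663 to 3341 in WT, with *Lyz2*, a lysozyme of myeloid cells, called higher (log2 fold change 3.29, called in 1 of 7 fits that left out a library), and fibroblast markers to 466 to 4511 against 428 to 499. The slope on transcript length was -0.181, 0.0906, -0.001 and -0.0819 in *Mtg16*-null replicates 1 to 4. In WT replicates 1 to 3 it was -0.0943, 0.162 and 0.105. Within each genotype, *Lgr5* stood in the order of these slopes. The part of leukocytes, fibroblasts, the segment score and the slope in the members' values was not tested.

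In distal T/T crypts after DSS, 3 libraries against 3, no member was called, nor was any of the 13648 genes tested (0% of them) by limma, with 1197 at an unadjusted p under 0.05. edgeR on recovered reads called 0 genes and DESeq2 334, no member among them. The largest changes were those of *Prom1*, with 16631, 19000.0 and 5706 in T/T and 4803, 4158 and 9361 in WT (log2 fold change 1.09, SE 0.523, adjusted p = 0.645), and of *Bmi1*, with 423, 739.7 and 223 and 162, 137 and 373 (log2 fold change 1.02, SE 0.552, adjusted p = 0.702). In both genes T/T replicate 3 lay among the WT libraries and WT replicate 3 was the highest of its group. *Ascl2* was 236, 262 and 432 against 464, 396 and 431 (log2 fold change -0.52, SE 0.286, adjusted p = 0.706), and *Lgr5* 264, 434 and 120.1 against 159.5, 172 and 267 (log2 fold change 0.30, SE 0.496, adjusted p = 0.86). In both the groups overlapped. The other 6 members lay between -0.30 (*Hopx*) and -0.03 (*Sox9*), and the intervals of 5 of the 10 lay within 1 log2 unit of 0, while those of the other 5 reached past a 2-fold change.

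The libraries of this table differed in their slope on transcript length, with 0.0896, 0.349 and -0.217 in T/T and -0.143, -0.247 and 0.168 in WT replicates 1 to 3. *Prom1*, *Bmi1* and *Lgr5* were higher in the 3 libraries with a slope above 0 than in the 3 with a slope below 0, whatever the genotype. *Ephb2*, *Lrig1*, *Smoc2* and *Hopx* were lower in all 3 of them. With each library's trend with transcript length removed, still no member was called between the genotypes (*Prom1* 0.98, adjusted p = 0.489, and *Bmi1* 0.95, adjusted p = 0.561), while 9 of all genes were. The segment score was -3.04 to -1.65 in the T/T and -4.50 to -3.76 in the WT libraries, without overlap. Leukocyte markers summed to 2134 to 2630 in T/T and 965 to 1520 in WT. Goblet cell markers summed to 676370 to 769462 in T/T and 1119940 to 1292260 in WT, and the 12 cell cycle genes to 44085 to 46461 and 27914 to 37200, both without overlap and with no gene called. The part of these values in the members' differences was not tested. None of the 21 stem cell associated genes tested was called (median 0.14, median of the members -0.06).

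**Figure D3:**
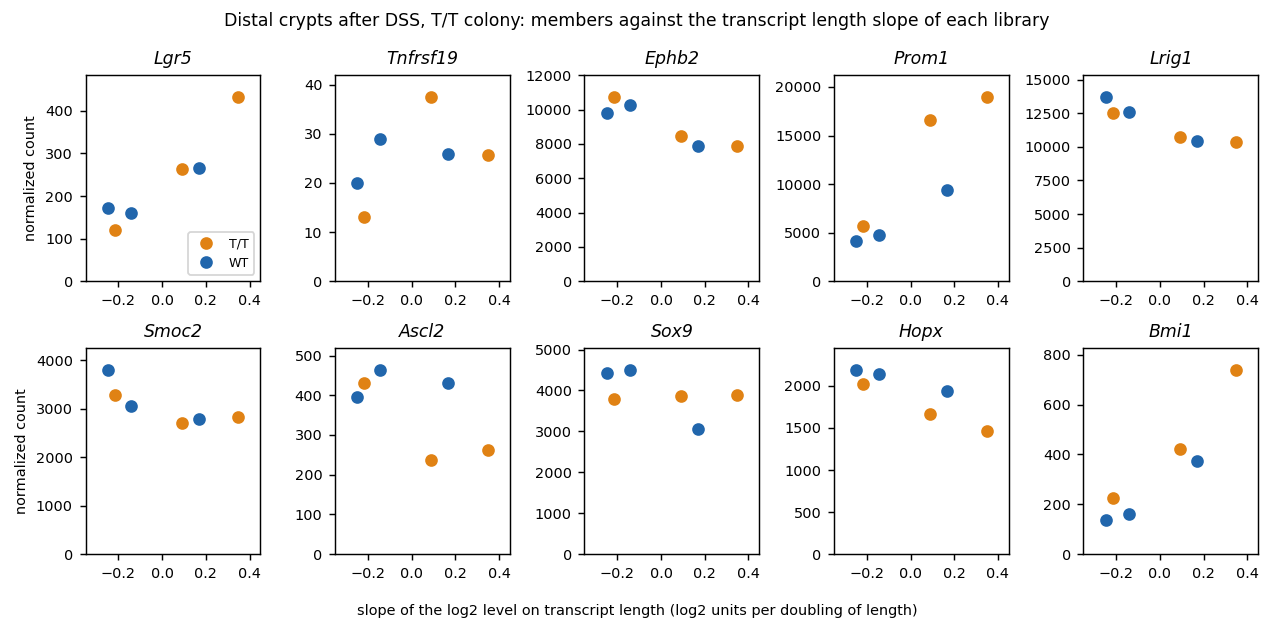
Normalized count of each member (vertical axes, from 0) in the 6 distal libraries of the T/T colony after DSS, against the slope of the library's log2 level on transcript length (horizontal axes, log2 units per doubling of length), T/T in orange and WT in blue. *Prom1*, *Bmi1* and *Lgr5* are higher, and *Ephb2*, *Lrig1*, *Smoc2* and *Hopx* lower, in the 3 libraries on the right, of which 2 are T/T.

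In AOM/DSS tumors, 3 T/T and 3 WT, no member was called, nor any of 15900 genes (0%) by limma, with 392 at an unadjusted p under 0.05, 0 by edgeR and 24 by DESeq2, none of them a member. *Lgr5* was 5262, 3429 and 7243 in T/T and 4912, 7461 and 4984 in WT tumors (log2 fold change -0.16, SE 0.277, adjusted p = 0.998). *Ascl2* was 1397, 721 and 1612 and 1213, 1450.2 and 1648 (log2 fold change -0.28, SE 0.289, adjusted p = 0.998). For both, T/T replicate 2 was the lowest of the 6 tumors. *Prom1* was the 1 member without overlap, 13750.3, 11462 and 12562 in T/T and 10245, 10606 and 11368 in WT, a change of 0.23 (SE 0.101, adjusted p = 0.998). The other 7 lay between -0.29 (*Tnfrsf19*) and 0.03 (*Bmi1*). The 95% interval of each of the 10 members lay within 1 log2 unit of 0, the lowest bound being -0.95, so a 2-fold difference between T/T and WT tumors lies outside all of them. None of the 22 stem cell associated genes was called (median 0.02, median of the members -0.13).

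**Figure D4:**
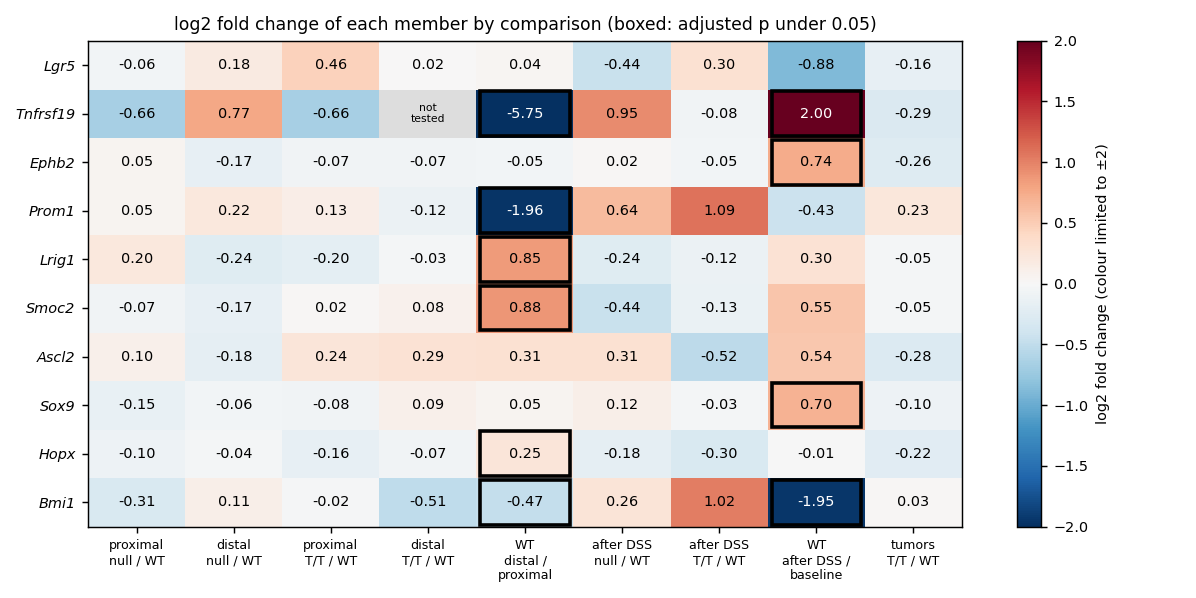
Log2 fold change of each member (rows) in the 9 comparisons (columns, first group over second), with the color limited to 2 log2 units either way and a box where the adjusted p was under 0.05. All 10 boxes lie in the 2 comparisons among WT mice, 6 for the segments and 4 for DSS. In the 7 comparisons of a mutant with WT there is none, and the gray cell marks *Tnfrsf19* in distal T/T crypts, which was too low to test. The fits shown are without the replicate block, with which *Prom1* was called in *Mtg16*-null against WT after DSS.

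To set all 14 groups side by side, each library was scaled to its own total (CPM), a scale that crosses tables and was not tested. Every tumor library was above every crypt library for 7 members, *Lgr5*, *Tnfrsf19*, *Smoc2*, *Ascl2*, *Sox9*, *Hopx* and *Bmi1*. The same held for 28.5% of the 14997 genes listed for all groups with a mean of at least 10 normalized counts in tumors. No minimum was set for crypts. *Lgr5* averaged 119 ± 31.9 (SD, n = 3) CPM in WT and 111 ± 41 (SD, n = 3) in T/T tumors. In crypts it ran from 3.86 ± 1.28 (SD, n = 3) in WT after DSS of the T/T colony to 8.54 ± 1.59 (SD, n = 3) in WT after DSS of the *Mtg16*-null colony. The 10 other crypt groups stood between these, and no neighbours among the 12 crypt groups in the order were separated without overlap. *Tnfrsf19* had the widest range, 900.1-fold between the means of WT tumors (58.6 ± 15.1 (SD, n = 3)) and distal T/T crypts (0.0651 ± 0.0534 (SD, n = 4)). In its order the tumors came first, then the 4 proximal groups (3.26 to 5.79), then distal *Mtg16*-null (0.761, set by replicate 2), the 4 groups after DSS (0.318 to 0.631) and the other 3 distal baseline groups (0.0651 to 0.116).

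*Prom1* was highest in the 4 proximal groups (603 to 661 CPM), with tumors (219.8 and 261) inside the range of the distal and DSS groups. *Lrig1* was highest in crypts after DSS of the WT mice of the T/T colony (235), and its tumor means (115 and 116) lay inside the crypt range. *Ephb2* varied least, 1.73-fold between the highest and the lowest group mean, and no neighbours in its order were without overlap. *Smoc2* spanned 7.94-fold, *Ascl2* 6.96-fold, *Sox9* 3.64-fold, *Hopx* 3.54-fold and *Bmi1* 9.18-fold between group means. Tumors held far more stroma than crypts. Fibroblast markers summed to 141359 to 194114 normalized counts in tumors, while the highest sum in any crypt library was 4511, and smooth muscle markers to 16139 to 113977. The part of stroma in the tumor levels of *Smoc2*, *Hopx*, *Bmi1* and the other members was not tested.

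**Figure D5:**
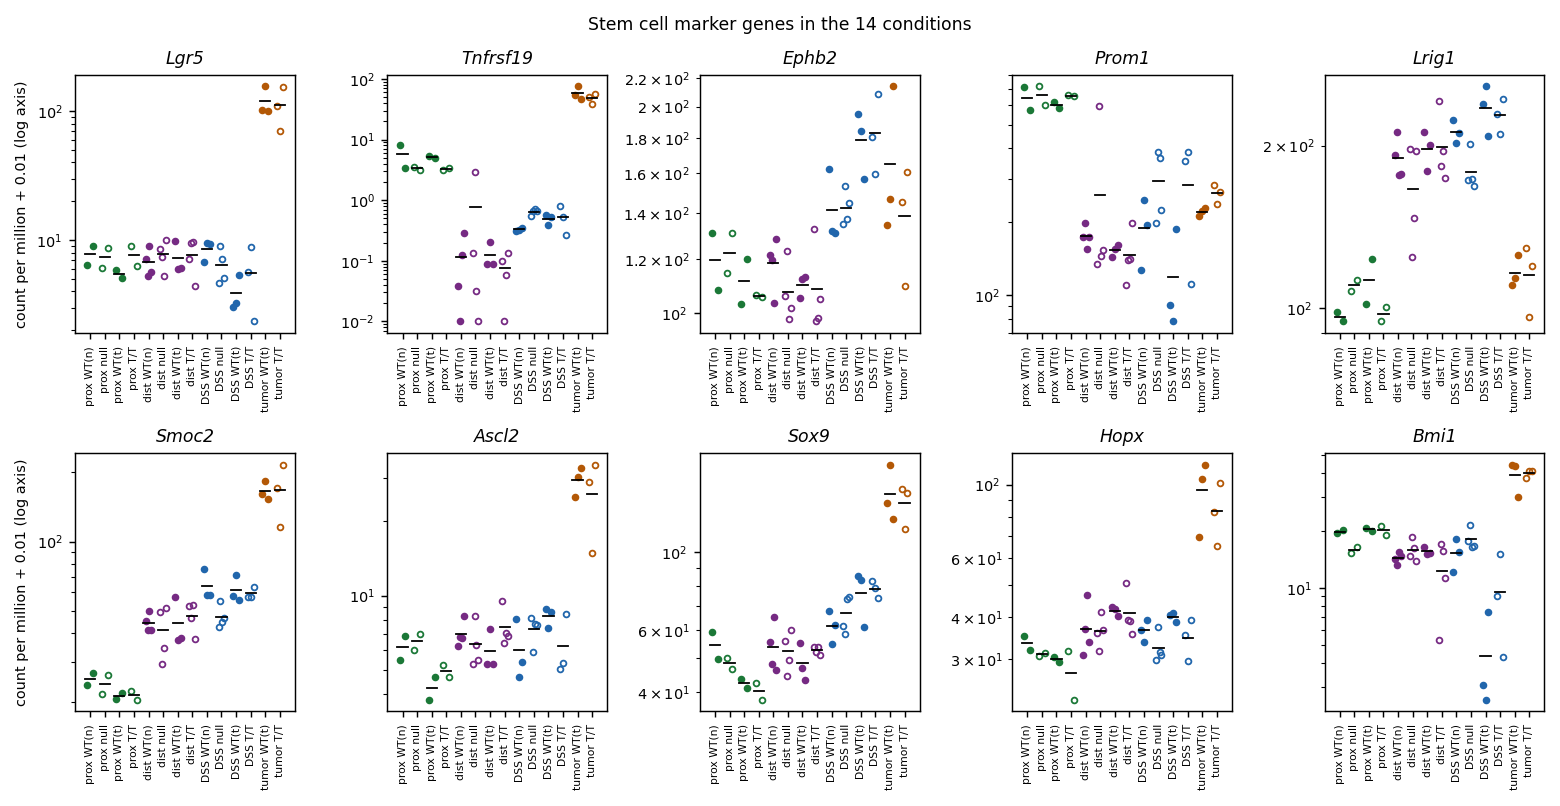
Counts scaled to the library total (CPM, plus 0.01, log axes) of the 10 members in all 42 libraries by group, with short lines at the group means, filled points for WT and open points for mutants, green for proximal, purple for distal baseline, blue for distal after DSS and brown for tumors. On the axis, n marks the *Mtg16*-null colony and t the T/T colony. In 7 panels all tumors lie above all crypts, and *Tnfrsf19* and *Prom1* separate proximal from distal groups except for 1 distal *Mtg16*-null library.

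Within groups, the members differed in how far their libraries spread. The SD within groups, pooled over all 42 libraries on the log2 scale, was largest for *Tnfrsf19* (1.3, and 0.848 without distal *Mtg16*-null replicate 2), *Prom1* (0.517, and 0.40 without it), *Lgr5* (0.458) and *Bmi1* (0.426), and smallest for *Lrig1* (0.171) and *Sox9* (0.181). *Tnfrsf19* and *Lgr5* are among the members with few counts in distal crypts, whereas *Prom1* and *Lrig1*, at opposite ends, are both abundant. Over the 41 libraries without replicate 2, the deviations of *Lrig1* and *Ephb2* had a Pearson r of 0.691, *Prom1* and *Bmi1* 0.675, *Ephb2* and *Ascl2* 0.662, *Lrig1* and *Smoc2* 0.642, and *Ephb2* and *Bmi1* -0.649. *Lgr5* and *Ascl2*, both markers of cycling stem cells, had -0.196. These values describe libraries that share groups, depth and the slopes on transcript length above. *Prom1* and *Tnfrsf19* had 0.569 with replicate 2 and 0.158 without it.

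Among 10436 genes with a mean of at least 100 in each of the 7 tables of a mutant and WT, those whose deviations over 42 libraries were most like *Lgr5* were *Srbd1* (r = 0.818), *Slc39a8* (0.805), a zinc transporter, and *Rad21* (0.793), a cohesin subunit. Those most like *Hopx* were *Snrpg* (0.758), a small nuclear ribonucleoprotein, *Emp2* (0.742), an epithelial membrane protein, and *Lcmt1* (0.720), a methyltransferase. The same 3 genes led each list over 41 libraries without replicate 2.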

How the data were processed

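RNA-seq values of 42 mouse colon libraries in 14 groups were taken from 9 tables (59 library columns). Per the labels and the study's methods, the authors trimmed reads with fastp 0.20.0, quantified transcripts of GENCODE vM21 (GRCm38) with Salmon 1.3.0, summed them per gene with tximeta and normalized them with DESeq2 1.26.0 in R 3.6.3. The values they deposited are the signal that results, counts divided by a size factor for each library, scaled within 1 table. For 38 libraries, all values came out as whole reads within a tolerance of 0.1, which gave the depth. The members and gene lists were chosen with earlier results of these data known, and their symbols were looked up in each table.

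Groups came from the sample labels. Each comparison was made within its table with limma 3.58.1 (trend method, R 4.3.3) on log2(normalized count + 1), over genes with a mean of at least 10, two-sided, with Benjamini-Hochberg adjustment over all genes tested and a threshold of 0.05. Adjusted p-values in the text are from these fits unless another tool is named. Intervals are at 95%. Differences between effects used fits of tables that share no library, with the squared errors summed. All members are given in each comparison, with each library's value where a member was called or its groups did not overlap (in the group of 7 the lowest, median and highest), and of each gene list at most the 3 called genes with the largest fold changes are named. Likeness was Pearson's r of deviations from group means over genes with a mean of at least 100 in each of the 7 tables of a mutant and WT. The fits were tested on simulated data, drawn as independent counts with the same dispersion for all genes. The simulation held no effects shared by the genes of a library, so it cannot show how the fits handle them.

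Alternatives were an added constant of 0.1, no filter, rescaled totals, recentring on 8 epithelial genes, each library left out, the replicate number as a block, library codes or colonies apart, and count models fitted to the recovered reads (DESeq2 1.42.0, edgeR 4.0.16). Removal of the trend with transcript length, and leaving distal *Mtg16*-null replicate 2 out of the differences and correlations, were added after the data had been seen. Replicate numbers were taken to pair the samples in 1 comparison, *Mtg16*-null against WT after DSS, where the deviations of same-numbered libraries correlated at 0.554, 0.46 and 0.317. What the numbers mark is not stated in the labels. Columns of fold changes and p-values made by the authors were not used.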

Additional observations from a re-analysis of the deposited data

Results flagged for a closer look

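Among 60 combinations of a member and a group of 4 or 7 libraries, 3 held a library whose gap to its nearest neighbour took up most of the range of the group (Dixon's test at 95%), which chance gives in about 1 in 20. *Tnfrsf19* at 132 and *Prom1* at 27099 in distal *Mtg16*-null replicate 2 had a gap of 0.956 of the range each, and both belong to the library with a segment score of proximal crypts. *Ascl2* at 397 in replicate 4 of the distal WT libraries of the *Mtg16*-null colony had a gap of 0.840. The other 3 WT values of *Ascl2* were 289.7, 300.0 and 307.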

How the results depend on the processing

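Of 1305 values of a member's fold change under an alternative, 1170 kept their sign and their side of the threshold, 32 lost a call, 13 gained one and none reversed a called change. In 90, an uncalled change took the other sign, 59 of them with a library left out. The proximal mutant tables gave no recovered reads, so edgeR and DESeq2 were not run there, and where a group of 2 lost a library the other was assumed to vary like the rest. After DSS, with the replicate number as a block, 1 member (*Prom1*) was called between *Mtg16*-null and WT where none had been, and no other member's call changed there. In the proximal comparisons, with 2 pairs each, correlations of 0.147 left pairing undecided, and the block moved calls over all genes from 9 to 32 in *Mtg16*-null and from 32 to 151 in T/T, with no member called. In each other comparison of 3 or 4 pairs at least 1 pair correlated under 0.1. The block kept all 4 calls of WT crypts after DSS and lost *Hopx* between segments (adjusted p = 0.176). In both comparisons it joined libraries whose codes differ, so it cannot show whether these calls hold within pairs. In WT crypts after DSS against baseline, leaving out 1 library gave 0 to 9 members called. It was 0 without the first library after DSS or the first or second at baseline, 1 without the third at baseline, 3 without the second after DSS and 9 without the third after DSS, while calls over all genes went from 4833 to between 1 and 9086. The cause was not tested. Recentring on epithelial genes took -0.28 off the log2 fold changes of T/T after DSS, -0.18 off those of tumors and 0.13 off those of proximal *Mtg16*-null crypts, and called no member there. Over all genes, calls in DSS *Mtg16*-null went from 91 to 1271 with the replicate block and to 727 with DESeq2. Distal *Tnfrsf19* counts were too few for a test of T/T against WT at baseline.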

Other observations

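A few secretory genes changed in baseline comparisons in which no stem cell marker was called. In distal *Mtg16*-null crypts, 4 enteroendocrine genes were higher than in WT, among them *Tph1* (log2 fold change 1.72), which makes serotonin, the transcription factor *Neurod1* (1.59) and the granule protein *Chga* (1.52), and each had an adjusted p of 0.0201 or less in the limma fit. Without distal *Mtg16*-null replicate 2 these 3 changes were 1.56, 1.76 and 1.35 and still called. Without any 1 of the other 7 libraries *Tph1* and *Neurod1* were not called, and *Chga* was in 1 of these 7 fits. None of the 3 was called with the replicate block or with the code of the library as a covariate. In proximal crypts, *Tff3*, a peptide of goblet cells, was higher in *Mtg16*-null (64042 ± 7361 against 20430.2 ± 2952 normalized counts, SD, n = 2 each) and in T/T (28495 ± 1254 against 15047 ± 1044). It was the 1 goblet cell gene called of 7 tested in each comparison, and 5 of the 7 had log2 fold changes below 0 in both (median -0.52 in *Mtg16*-null and -0.32 in T/T). The call of *Tff3* held in 2 of 4 fits that left out a library in *Mtg16*-null and in 1 of 4 in T/T. It was lost in both with no filter on low values, and in T/T with libraries recentred on epithelial genes. Over the same 3 comparisons none of the 12 cell cycle genes was called, and of the stem cell associated genes *Aqp4* in proximal T/T was the 1 call.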
